A study of Rattus norvegicus with 2 samples.

Results

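The genes described here are the nuclear receptors that receive pioglitazone or work beside its receptor, and their cofactors: the 3 PPAR genes (Pparg, Ppara, Ppard), the 3 RXR genes (Rxra, Rxrb, Rxrg), the 2 LXR genes (Nr1h2, Nr1h3), the corepressor gene Ncor1 and the coactivator gene Ncoa1. A gene was taken up when the RefSeq accession of a non-control probe mapped to its symbol. This gave 7 of the 10 genes, out of 13440 named genes in all, read by 8 probes and 26 spots on each array. Rxra, Ncor1 and Ncoa1 were matched by no probe and are not analysed here.

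Whole kidneys came from female PCK rats, a strain whose mutated Pkhd1 gene causes cysts in kidney and liver and which models the recessive form of human polycystic kidney disease. Pioglitazone at 10 mg/kg or vehicle (0.5% DMSO) was given by daily gavage, beginning at an age of 4 weeks and ending at 20 weeks. RNA was pooled within a group and each pool was hybridised to 1 array, so the spread between animals was not measured. The labels give the pool once as 5 females and once as 3 rats. Both groups carry the cystic genotype, and normal rats are not analysed here. Of marker genes with a probe, 12 of 12 proximal tubule and 7 of 7 thick ascending limb genes were well above background on both arrays. So were 12 of 13 macrophage, 6 of 6 endothelial and 8 of 10 adipocyte genes. These counts therefore cannot check the kidney label.

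PPARs are ligand-activated transcription factors that bind DNA as heterodimers with an RXR. PPAR-gamma, the receptor of pioglitazone and other thiazolidinediones, drives fat storage genes in adipocytes and is also found in the renal collecting duct. PPAR-alpha drives fatty acid oxidation and is abundant in the proximal tubule, and PPAR-delta is expressed in most tissues. LXRs are oxysterol receptors that also pair with RXRs and control cholesterol efflux and fatty acid synthesis. Without ligand such receptors can hold corepressors of the NCoR family, and ligand favours the exchange for coactivators of the SRC family.

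All 7 genes read by a probe had signals well above background in both pools, in all 26 spots, none of them flagged as an outlier. Such signals were common. Of 13440 named genes 10481 had a probe well above background on both arrays. Of non-control spots 71.8% (vehicle) and 73.1% (pioglitazone) were well above background. None of the 7 differed between the pools by 1.5-fold and by more than 2 times its technical error, a call that 2.51% of the 10481 measured genes met. Pparg was 1.23-fold lower with pioglitazone, Ppara 1.19-fold higher and Ppard 1.26-fold higher. The RXR and LXR genes lay between 1.01-fold and 1.13-fold higher. Differences below are pioglitazone minus vehicle on the log2 scale, after each array's 75th percentile was subtracted. That step removed a shift of 0.08 towards the pioglitazone array. The technical error combines the scanner software's error estimates of both spots. It does not shrink with the number of spots and holds no spread between animals. With 1 array per group no p-value was computed and no difference has a replicate check. In whole-kidney RNA fewer cells of a type and less RNA per cell cannot be told apart. Brightness depends on each probe, so no gene's signal is set against another's.

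**Figure D1:**
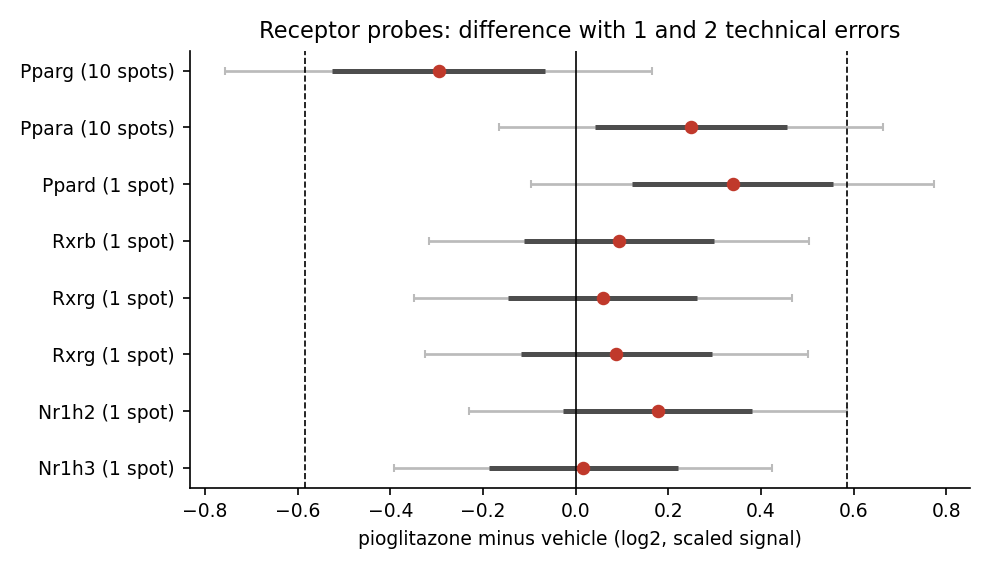
Difference between the pools (log2, horizontal axis) for the 8 receptor probes, as points with 1 (dark bar) and 2 (light bar with caps) technical errors; dashed lines mark 1.5-fold. All 8 points lie inside the 1.5-fold lines and each light bar crosses 0, with Pparg the one point below 0.

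Pparg encodes the receptor that pioglitazone binds. Its probe, A_44_P123333, was printed 10 times on each array. The spots gave a processed signal of 30.7 at the lowest, 38.2 at the median and 41.4 at the highest in the vehicle pool, and 28.7, 32.2 and 35.2 in the pioglitazone pool. After scaling, the pioglitazone spot was the lower one at all 10 grid positions, and 7 of the 10 pioglitazone spots lay below the lowest vehicle spot, so the ranges overlapped. The mean difference was -0.30, with a standard error over spots of 0.05 and a technical error of 0.23. It was 1.28 technical errors from 0. The standard error over spots covers spot noise alone, since all spots of an array share 1 labelled pool. Without scaling, 9 of the 10 positions were lower with pioglitazone, and 2 pioglitazone spots lay below the lowest vehicle spot. Of all measured genes 15.5% differed by at least as much in either direction.

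Ppara encodes the fatty acid receptor of the proximal tubule. Its probe, A_42_P509766, was also printed 10 times. The spots read 80.3, 87.6 and 91.1 at the lowest, median and highest with vehicle, and 103, 110.5 and 118 with pioglitazone. Every pioglitazone spot exceeded every vehicle spot, in the scaled and in the unscaled signals. The mean difference was 0.25, with a standard error over spots of 0.03 and a technical error of 0.21, which places it between 1 and 2 technical errors. With normexp background correction all 10 positions were still higher with pioglitazone, but only 3 spots lay above the highest vehicle spot, and the difference was 0.11. Of all measured genes 21.5% differed by at least as much.

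**Figure D2:**
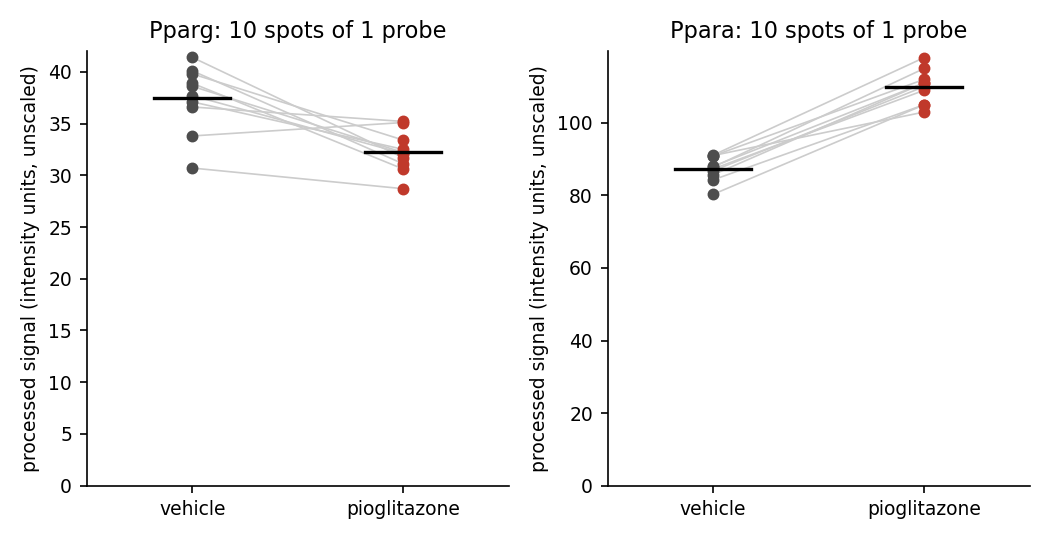
Unscaled processed signal (vertical axes, intensity units, starting at 0) of the 10 spots of the Pparg probe (left) and the Ppara probe (right) on the vehicle and pioglitazone arrays; grey lines join spots at the same grid position and black bars are means. Pparg spots of the arrays overlap and 9 of 10 lines fall, whereas the Ppara spots do not overlap.

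A spot range that does not overlap between the arrays was common. Of 203 probes printed 10 times and well above background in every spot, 59 had ranges apart, or 29.1%, with 30 (14.8%) higher and 29 (14.3%) lower with pioglitazone. Ppara was among the 30, and Pparg, with overlapping ranges, was not among the 29. In this set of probes 15.3% differed by at least as much as Pparg and 24.6% by at least as much as Ppara, shares close to those over all genes. The median absolute difference in the set was 0.12, beside a median spot SD of 0.07.

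**Figure D3:**
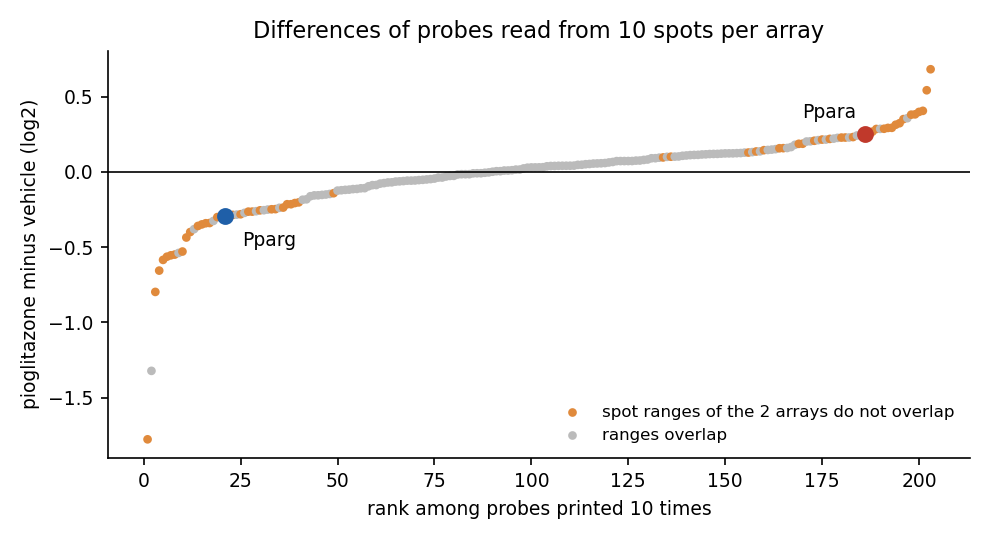
Mean difference (log2, vertical axis) of the 203 probes with 10 spots well above background, in rank order (horizontal axis); orange points have spot ranges that do not overlap between arrays. Pparg (blue, -0.30) and Ppara (red, 0.25) sit on the shoulders of the distribution, inside its ends.

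Ppard encodes PPAR-delta. Its probe, A_43_P11733, was read from 1 spot per array, at 40.4 with vehicle and 54.1 with pioglitazone. The difference of 0.34 was 1.56 technical errors, and at this scaling no other member lay farther from 0. Of all measured genes 11.7% differed by at least as much. With normexp correction it was 0.13, nearer to 0 than Pparg at -0.20.

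The PPAR genes differed in sign, and a difference between their differences does not depend on a constant scaling of the arrays. These contrasts were formed after the values were seen. Ppard minus Pparg was 0.63 with a combined technical error of 0.32, or 2.0 times the error. Ppara minus Pparg was 0.55 with an error of 0.31, or 1.76 times. Ppard minus Ppara was 0.09 with an error of 0.30. Over the alternative settings the first ranged from 0.33 to 0.63 and the second from 0.31 to 0.55. These values describe unequal signals in 2 pools and were not tested against animal spread.

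The promoters of Pparg and Ppara are shown because these genes were the ones read from 10 spots and had opposite signs. RefSeq sequences of the GRCr8 assembly cover 6 of the 7 genes, Ppard having no entry, in 7 windows of 250 bases upstream of an annotated start. Pparg has 2 such starts, and the array does not show which of them the measured transcripts used. Capitals mark matches on either strand to GGGCGG, the GC box bound by Sp1-type factors, or to CCAAT.
Pparg upstream start, chr4:150096808-150097057, plus strand: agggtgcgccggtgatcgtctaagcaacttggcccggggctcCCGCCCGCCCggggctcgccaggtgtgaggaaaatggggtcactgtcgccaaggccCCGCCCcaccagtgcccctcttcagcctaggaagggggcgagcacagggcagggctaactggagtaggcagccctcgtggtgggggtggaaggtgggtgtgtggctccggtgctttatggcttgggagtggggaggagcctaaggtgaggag
Pparg downstream start, chr4:150154522-150154771, plus strand: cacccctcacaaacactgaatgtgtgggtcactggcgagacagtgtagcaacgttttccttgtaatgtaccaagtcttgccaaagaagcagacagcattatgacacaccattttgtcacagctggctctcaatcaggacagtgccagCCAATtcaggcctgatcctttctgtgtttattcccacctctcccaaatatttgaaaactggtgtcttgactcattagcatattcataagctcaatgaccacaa
Ppara, chr7:118712357-118712606, plus strand: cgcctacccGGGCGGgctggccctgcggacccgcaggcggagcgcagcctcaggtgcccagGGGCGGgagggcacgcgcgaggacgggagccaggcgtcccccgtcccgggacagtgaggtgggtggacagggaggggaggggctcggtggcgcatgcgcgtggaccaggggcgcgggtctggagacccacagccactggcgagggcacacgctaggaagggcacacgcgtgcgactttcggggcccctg
The upstream Pparg window was 67.2% G and C and held 3 GC boxes, at 208, 204 and 152 bases before the start, of which the first pair overlaps. The downstream Pparg window was 44.8% G and C, with no GC box and 1 CCAAT at 103 bases before the start. The Ppara window was 76.0% G and C with 2 GC boxes, at 241 and 189 bases before the start. Rxrb, at 74.0% G and C, also held 2 GC boxes, and Rxrg held 1 CCAAT at 242 bases before the start, while the Nr1h2 and Nr1h3 windows held neither. Over all 33469 promoter windows the median was 51.2% G and C, 30.5% had a GC box and 34.0% a CCAAT. The nuclear receptor half-site AGGTCA was in 0 of the 7 windows and in 14.1% of all windows. TATAAA was in 0 of the 7 and in 12.9% of all. The PPAR:RXR repeat AGGTCANAGGTCA was in 0.051% of all windows and the LXR:RXR repeat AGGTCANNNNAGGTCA in 0.003%, so their absence from these 7 windows is what most promoters show. These matches describe letters in a short window only.

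The RXR genes encode the common partner of PPARs and LXRs. Rxrb, by probe A_44_P402675, read 217 with vehicle and 245 with pioglitazone, a difference of 0.09 with a technical error of 0.20. Rxrg was read by 2 probes of the same accession. A_44_P269316 gave 1170 and 1290, a difference of 0.06, and A_44_P328016 gave 96.0 and 108, a difference of 0.09. The Rxrg probes were alike in sign and both lay within 1 technical error of 0. RXR-alpha, the form usually most abundant in epithelia, is the receptor gene without a value here.

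The LXR genes differed from 0 by less than 1 technical error. Nr1h2, which encodes the widely expressed LXR-beta, read 3800 with vehicle and 4550 with pioglitazone by probe A_44_P474165, a difference of 0.18 with an error of 0.20. Nr1h3, which encodes LXR-alpha of liver, fat and macrophages, read 5770 and 6180 by probe A_43_P12618, a difference of 0.02 with the same error. The sign of the Nr1h3 difference turned under 2 of the 10 alternative settings, reaching -0.04. Of measured genes 92.6% differed by at least as much as Nr1h3 and 35.2% by at least as much as Nr1h2.

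As a group, 6 of the 7 genes had positive differences, where 56.1% of all measured genes did. Their median was 0.09 beside a median of 0.03 over all measured genes. Only Pparg, Ppara and Ppard were more than 1 technical error from 0, as were 26.8% of measured genes. With 7 genes and 1 array per group nothing further was read from these counts.

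Genes that work with these receptors were taken from fixed lists and counted by the same call. Other nuclear receptors that pair with RXR had a median of 0.002 over 7 measured genes of 11 listed, 4 positive and none called. The bile acid receptor gene Nr1h4 (FXR) read 226 and 300, a difference of 0.33. The orphan receptor gene Nr4a2 was at -0.29 and the xenobiotic receptor gene Nr1i2 (PXR) at 0.22. The vitamin D receptor gene Vdr was level, at 96.2 and 102 (0.002). Nuclear receptors of the kidney that were counted apart had a median of -0.05 over 16 genes and none called. Esrrg, an estrogen-related receptor of mitochondrial gene control, was at -0.40 from dim signals of 14.1 and 11.3, the clock repressor gene Nr1d1 at 0.33 and the proximal tubule regulator Hnf4a at 0.29. The signs of both medians turned under at least 1 alternative setting.

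Cofactor genes had small differences. Corepressor complex genes had a median of -0.10 over 10 measured genes of 16 listed, 8 negative and none called. Nrip1, a ligand-dependent corepressor of metabolic genes, was at -0.30, the NCoR complex subunit gene Gps2 at 0.17 and its partner Tbl1xr1 at -0.15. The NCoR-bound deacetylase gene Hdac3 was at 0.04. Coactivator genes had a median of -0.04 over 12 genes, 8 negative and none called, and that sign turned under 2 of 10 alternatives. Lpin1 was at -0.26, Ppargc1a, the PGC-1-alpha coactivator of mitochondrial and PPAR target genes, at -0.23, and its relative Ppargc1b at -0.15. Ncoa2, the SRC-family member measured, read 83.5 and 85.1 (-0.06). Vdr, Hdac3 and Ncoa2 were picked out after their values were seen.

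Few targets of the receptors met the call, and the target lists were not tested against each other. Of 24 measured PPAR-gamma targets none was called higher and 3 lower, beside background shares of 0.754% higher and 1.76% lower. Their median was 0.06, with 14 positive. The 3 were Retn, which encodes the adipokine resistin (276 and 60.4, difference -2.27), the fatty acid desaturase gene Scd (91.4 and 24.6, -1.98) and the brown fat uncoupling protein gene Ucp1 (310 and 95.4, -1.78, a mean of 6 spots). Retn and Scd were read from 1 spot each, both in the last of 10 bands of grid rows. With normexp correction the 3 differences were -1.43, -0.94 and -1.32. The other 21 lay between -0.32 and 0.45. Retn and Ucp1 are also on the adipocyte marker list, as are Adipoq, Fabp4, Cidec and Lipe, which lay between -0.10 and 0.01. PPAR-alpha targets had a median of 0.12 over 33 genes, with 28 positive and none called, led by the thioesterase gene Acot4 (524 and 826, 0.57), the thiolase gene Acaa2 (0.38) and the fatty acid hydroxylase gene Cyp4a2 (0.37). Acot4 was called with array median scaling and in the unscaled table. LXR targets had a median of -0.18 over 14 genes, with 9 negative and Scd the one called. The sterol exporter genes Abcg5 (16.5 and 12.5, -0.48) and Abcg1 (1400 and 1070, -0.47) followed, while the efflux pump gene Abca1 was at -0.27 and Lpcat3 at 0.25. The PPAR-gamma and LXR target lists share Scd and Lpl.

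Genes that make, carry or remove receptor ligands had a median of -0.08 over 20 genes, 14 negative. Of these 2 were called lower, beside a background share of 1.76% lower. These were Alox5, the 5-lipoxygenase of leukotriene synthesis (80.6 and 46.1, -0.89), and Cyp26b1, which breaks down retinoic acid (573 and 375, -0.69). With normexp correction 1 of the 2 was called. Alox5 and Cyp26b1 were read from 1 spot each, in bands 6 and 7 of 10 bands of grid rows. Leaving out those bands removes both genes, so the count of 0 called there does not check their differences. Ptgs1, the cyclooxygenase upstream of prostaglandins, was at -0.55 over 10 spots.

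**Figure D4:**
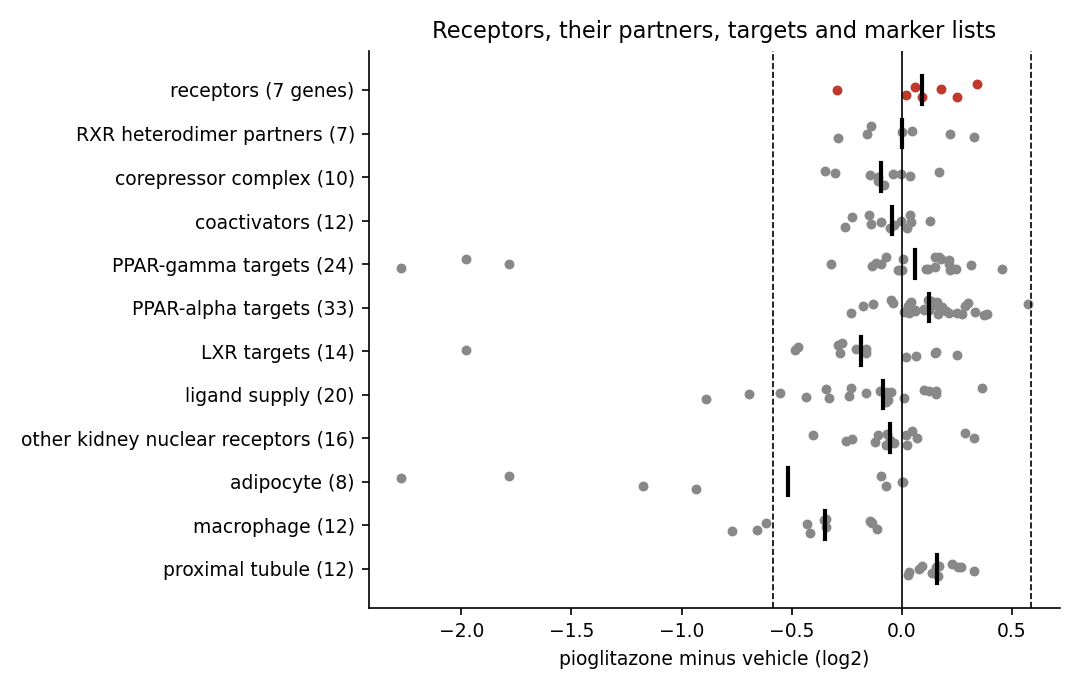
Difference between the pools (log2, horizontal axis) of each measured gene in the receptor group (red), 8 lists of partners, targets and ligand genes and 3 marker lists (grey), with the number of measured genes in brackets, black bars at the medians and dashed lines at 1.5-fold. The receptors lie between -0.30 and 0.34, and the points beyond the lines are all on the lower side.

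Among markers of cell types that carry these receptors, 4 adipocyte and 3 macrophage genes met the call, and no proximal tubule or principal cell gene did. Of all measured genes 2.51% met the call (1.76% lower), and 56.1% had a positive difference. Adipocyte markers had 8 measured genes of 12 listed, a median of -0.52 and 4 called lower: Retn, Ucp1, the adipsin gene Cfd (-1.18) and the lipogenic regulator Thrsp (-0.94). Their summed unscaled signal, which keeps the array shift of 0.08, was 3205 with vehicle and 2108 with pioglitazone. The defining marker Adipoq read 822 and 814 (-0.10), and Lep and Car3 were not well above background on at least 1 array. Without the sixth and the seventh of 10 bands of grid rows, which hold the 1 spot of Cfd, the adipocyte median over the remaining genes was -0.10, and Retn, Ucp1 and Thrsp still met the call. Macrophage markers were negative in 12 of 12 measured genes, with a median of -0.35 and a summed unscaled signal of 31880 and 28418. The 3 called lower were Itgam (-0.77), Trem2 (-0.66) and Gpnmb (-0.62), of which 1 was called in the unscaled table. Principal cell markers of the collecting duct had a median of -0.08 over 7 genes, 3 positive and 4 negative, with none called. Without bands 6 and 7 of the grid rows the principal cell median was 0.11. Those 3 lists stand beside the Pparg difference of -0.30, and their part in it was not tested. Proximal tubule markers all had positive differences (12 of 12). Their median was 0.16, with none called and a summed unscaled signal of 407372 and 472672. They stand beside the Ppara difference of 0.25 and the PPAR-alpha target median of 0.12, and their part in these was not tested.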

How the data were processed

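Pooled whole-kidney RNA of 1 vehicle and 1 pioglitazone group was measured on 1 Agilent 1-colour array each. The deposited unit is spot intensity, not log-transformed. Background was subtracted and trends were removed within each array by Agilent Feature Extraction 10.7.3.1, per the file headers. The arrays were not scaled to each other. The series value table deposited by the authors repeats these intensity values at all 45018 features, with column medians of 46.8 (vehicle) and 47.7 (pioglitazone). The file headers name the rn4 build, so no probe coordinates are given.

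The 1639 control spots and 149 spots with an outlier flag were left out of gene values, and no spot was saturated. Of non-control spots 71.8% (vehicle) and 73.1% (pioglitazone) were well above background, the lowest such signals being 7.66 and 7.16. Log2 signals were set against each array's 75th percentile, and spots of a probe were averaged. Unversioned accessions named 16964 of 41012 probes through a RefSeq table of GRCr8. No probe had several symbols and 24048 had none. A gene took its brightest probe well above background on both arrays, which gave 10481 measured genes. A call required a 1.5-fold difference beyond 2 technical errors, whose median was 0.20. The number of arrays limits the precision. Outlier-flagged spots were kept where the 10 spots of replicated probes were compared.

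The members, the 8 pathway lists, the 7 marker lists, the rule for named genes and the alternatives were chosen with earlier results of these data known. The text names all 10 members, up to 3 genes per pathway list with the largest absolute difference whose probes had the same direction, and marker genes that met the call, besides the genes said to be chosen otherwise. Abca1, Lpcat3, Adipoq, Fabp4, Cidec, Lipe, Lpl, Lep and Car3 were also named after their values were seen. The procedure was tested on simulated data, the vehicle array set against itself with added spot noise and with some genes changed. Such data hold no spread between animals or pools, so that test cannot check the calls against it. Alternatives varied the scaling (limma 3.58.1 for quantile and cyclic loess), the background correction (normexp, offset 50, on median signals), the dim-probe filter, the probe rule, flagged spots, grid rows and the call.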

Additional observations from a re-analysis of the deposited data

How the results depend on the processing

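No receptor gene met the call under any of the 12 alternatives, including 1.5-fold alone and a lower threshold of 0.32 on the log2 scale with 2 errors. For each receptor probe 2 technical errors came to at least 0.41, so that lower threshold could not decide a call. Past 0.32 alone lay 1 of the 7 genes, Ppard, beside 13.0% of all measured genes. The median of the 7 genes stayed positive over 10 alternatives, between 0.08 and 0.18. Not all of these could move it. All 26 receptor spots were well above background and none was flagged, so the dim-probe and flagged-spot settings left those spots unchanged. The probe rule could change only Rxrg. Pparg ranged from -0.31 to -0.20, Ppara from 0.11 to 0.33, Ppard from 0.13 to 0.42, Rxrb from 0.05 to 0.18, Rxrg from 0.03 to 0.14, Nr1h2 from 0.13 to 0.26 and Nr1h3 from -0.04 to 0.10. The share of all genes called, 2.51%, was 0.544% with normexp on median signals and 5.61% at the lower threshold with 2 errors. The first used other input signals and an offset that shrinks dim differences, the second a lower threshold. With normexp Alox5 was at -0.45, Thrsp at -0.62 and Itgam at -0.23. Medians of the RXR partner, coactivator, PPAR-gamma target and other nuclear receptor lists changed sign under at least 1 alternative, and those of the corepressor, PPAR-alpha target, LXR target and ligand lists kept theirs. Leaving out the scaling put the all-gene median at 0.11 in place of 0.03. Normexp used median signals, as the planned fallback for mean signals. A block for the slide was not possible. Dim signals limit the precision: the technical error was 0.23 for Pparg and 0.33 for Abcg5, against 0.20 for bright genes. That 0.20 is the software's estimate and not a measured spread of spots. The median spot SD was 0.07 in probes printed 10 times. No paired analysis was possible because 1 array stands for each group.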

Other observations

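Marker lists of other kidney cell types were also summarised. Intercalated cell markers had a median of 0.28 over 7 measured genes, with 6 positive and none called. Thick ascending limb markers had a median of 0.09 over 7 genes and endothelial markers a median of 0.02 over 6 genes, with none called in either list. The thick ascending limb, endothelial and principal cell medians changed sign under at least 1 alternative setting.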
